A study of Homo sapiens with 6 samples.

Results

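The BCL2 family genes described here are 10 regulators of the mitochondrial route to apoptosis, taken by name from a gene count table of 61541 Ensembl genes. They are the anti-apoptotic genes MCL1, BCL2L1 and BCL2, the effectors BAX and BAK1, and the BH3-only genes PMAIP1, BBC3, BMF, BID and BCL2L11. All 10 were found once in the table, and all 10 passed the filter on low counts that left 14766 tested genes. RNA was sequenced from a human cell line labelled A498, which derives from a clear cell renal carcinoma, in 3 libraries with a short hairpin RNA against RNF26 (shRNF26) and 3 libraries with a control hairpin (shcontrol). RNF26 is a ubiquitin ligase of the endoplasmic reticulum membrane. Both groups share the culture medium (RPMI-1640 with serum) and a step labelled transfection infection. The labels name neither the hairpin sequence nor the number of hairpins or clones, and no time after the knockdown, so an effect of the hairpin itself and of the loss of RNF26 cannot be told apart. They do not state whether replicates were grown separately, so the p-values describe the spread among these libraries, which may be technical.

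BCL2 family proteins decide whether the outer mitochondrial membrane is opened. BAX and BAK1 form the pores that let cytochrome c out, the anti-apoptotic members hold them in check, and BH3-only members, which carry a single shared motif, either block the anti-apoptotic members or act on BAX and BAK1 directly. MCL1 and NOXA, the product of PMAIP1, are short-lived proteins that bind each other, and renal carcinoma lines are commonly studied for their dependence on MCL1 and BCL-XL, the main product of BCL2L1.

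Promoter sequences are shown for 3 members with an entry: PMAIP1, the largest fall, BMF, the largest rise, and BCL2L1, the anti-apoptotic gene that fell and has an entry. BBC3, which fell more than BCL2L1, is not shown. RefSeq entries on GRCh38.p14 were matched for 9 members, all except MCL1. Each line gives the 250 bases before the annotated start, in the direction of transcription, with the letters TGACG or their complement CGTCA in capitals (the half-site of the cyclic AMP response element, CRE, bound by CREB and ATF factors).
PMAIP1, chr18:59899746-59899995, plus strand: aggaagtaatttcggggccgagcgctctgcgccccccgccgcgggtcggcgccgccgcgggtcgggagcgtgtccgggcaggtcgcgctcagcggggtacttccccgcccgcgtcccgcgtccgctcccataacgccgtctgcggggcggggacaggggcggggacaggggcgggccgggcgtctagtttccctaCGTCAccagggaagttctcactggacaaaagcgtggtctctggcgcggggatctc
BCL2L1, chr20:31723964-31724213, minus strand: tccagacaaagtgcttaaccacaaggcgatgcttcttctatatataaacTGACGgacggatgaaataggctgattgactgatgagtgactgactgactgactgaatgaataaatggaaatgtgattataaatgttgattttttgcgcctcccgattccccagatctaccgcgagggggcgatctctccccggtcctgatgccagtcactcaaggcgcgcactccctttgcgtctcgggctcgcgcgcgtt
BMF, chr15:40108880-40109129, minus strand: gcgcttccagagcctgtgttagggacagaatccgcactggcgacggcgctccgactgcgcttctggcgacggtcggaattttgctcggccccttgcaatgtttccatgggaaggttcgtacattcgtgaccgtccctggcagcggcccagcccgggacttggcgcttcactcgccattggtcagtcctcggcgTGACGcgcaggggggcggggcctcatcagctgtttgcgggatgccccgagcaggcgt
For BCL2L1 and BMF the first of 2 listed starts is shown, and the half-site was not found before the second start of either. For each of the 3 entries the last 30 bases, which follow the start and are not printed, lie inside a GENCODE 29 transcript. The half-site, searched on both strands, was found before at least 1 start of 5 of the 9 members (BCL2, BCL2L1, PMAIP1, BMF and BAX), and in 24.9% of all 27305 genes with an entry. It stood 55 to 51 bases before the start of PMAIP1 and 57 to 53 bases before the start of BMF. The AP-1 letters TGANTCA were found for 1 member (BBC3), against 8.06% of all genes. The last 30 bases of the BBC3 entry were not found in a GENCODE 29 transcript, so its start is less certain. The C/EBP-ATF element TGATGNAA was found for 0 members, against 3.89% of all genes, and the E-box CACGTG for BBC3, BAX and BID, against 7.73%. In BAX, which had 4 E-boxes, 1 of them shared its last letters with the half-site. The half-site thus preceded 2 genes that fell, 1 that rose and 2 that did not pass, and a match of letters does not show that a factor binds there.

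Libraries held 16682871 to 18021718 counts. In CPM (counts scaled to a common library size, with the scaling factor of each library), 1 count was worth 0.0543 to 0.0609. RNF26 averaged 68.7 ± 0.482 CPM in shRNF26 and 1972 ± 49.7 CPM in shcontrol (SD, n = 3 each), a direction that fits the labels. Per kilobase of exon this was 24.6 CPM in shRNF26 and 708 CPM in shcontrol, rank 44 of the tested genes with a length by the mean of all libraries. Without untreated cells among the libraries, whether the shcontrol level is the usual one of this line was not tested. Among 15 listed markers of kidney and its clear cell carcinoma 9 were below the filter, and SLC17A3 had no count in any library. All 10 squamous epithelial markers passed the filter, with 1 higher, 6 lower and 3 not passing at an adjusted p below 0.05 (edgeR). That is 70% called, against 41.4% of all tested genes. Their summed level was 3098 to 3147 CPM in shRNF26 and 5521 to 5704 CPM in shcontrol, the renal list summed to 327 to 347 CPM in shRNF26 and 350.3 to 361 CPM in shcontrol, and 6 of 9 endothelial, fibroblast and leukocyte markers were below the filter (sum 89.8 to 94.7 CPM in shRNF26 and 62.0 to 73.0 CPM in shcontrol). Most of the renal sum came from EPAS1 and CDH2. Of the 6 tested renal markers 66.7% were called, against the same 41.4%: EGLN3 and EPAS1 were higher, VIM (2.58-fold) and CDH2 lower, and 2 did not pass. The sum of the other cell types was nearly all COL1A1, which was higher at 84.7 ± 3.30 CPM in shRNF26 and 59.5 ± 5.19 CPM in shcontrol (log2 fold change 0.51, edgeR adjusted p = 1.94e-06), while COL1A2 had 0 counts in each shRNF26 library and at most 3 in a shcontrol library. Cell identity is therefore taken from the label alone, and the part of these marker levels in the results on the BCL2 family was not tested. In bulk RNA, fewer cells that carry a transcript and less of it per cell cannot be told apart.

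Of the 10 members, 5 fell in shRNF26 (PMAIP1, BBC3, BCL2L1, MCL1 and BAK1), 2 rose (BMF and BID) and 3 did not pass (BCL2, BCL2L11 and BAX), at an adjusted p below 0.05 in the quasi-likelihood test of edgeR over all tested genes. Of all tested genes 41.4% were called, 22.6% lower and 18.9% higher, so a call by itself is common in this comparison. The median log2 fold change of the members was -0.34, beside 0.01 for all tested genes. A change of at least 2-fold was called for 1 member (PMAIP1) and for 2.94% of all tested genes. The CPM ranges of the groups did not overlap for 8 of 10 members, against 50.1% of all tested genes. With library totals in place of trimmed mean of M values (TMM) scaling, all tested genes split into 4449 higher and 2269 lower, in place of 2785 higher and 3332 lower, while the members still split into 2 higher and 5 lower.

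**Figure D1:**
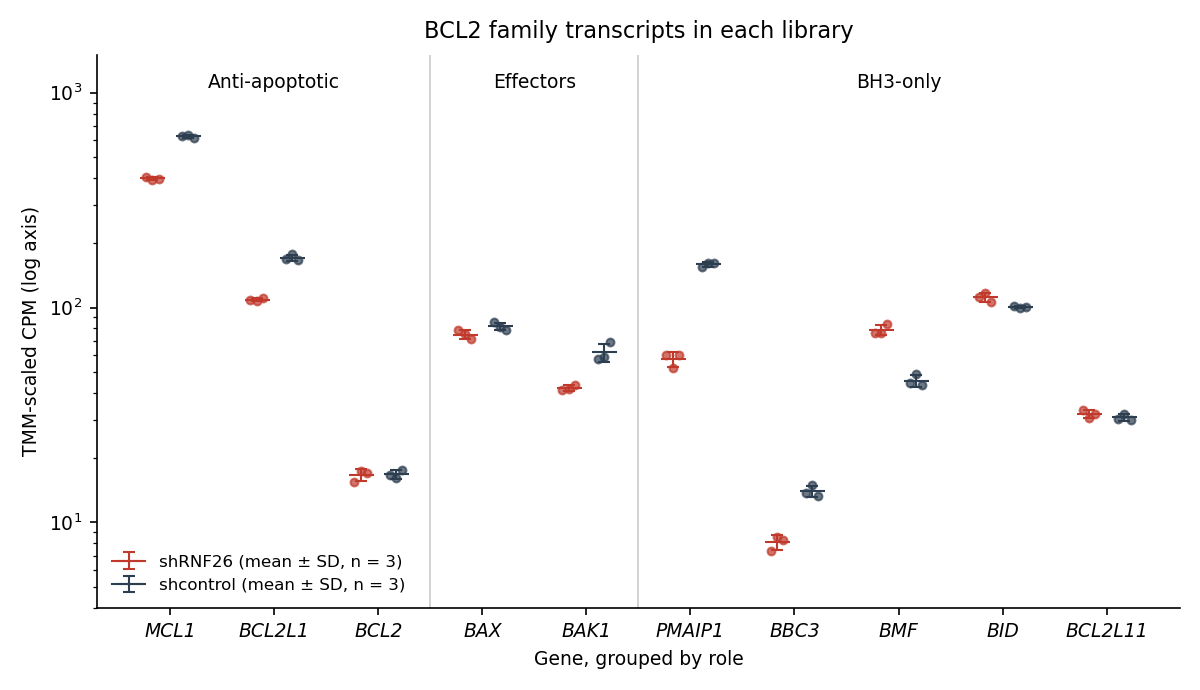
TMM-scaled CPM of the 10 genes on a log axis, with 1 point per library and the mean ± SD of 3 libraries per group. The groups are apart for PMAIP1, BBC3, MCL1, BCL2L1, BAK1, BMF, BID and narrowly BAX, and overlap for BCL2 and BCL2L11.

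MCL1 and BCL2L1, the most abundant anti-apoptotic genes, were both lower in shRNF26, by nearly the same factor, while BCL2 did not pass the test. MCL1 (ENSG00000143384) encodes a guardian that binds BAK1 and several BH3-only proteins. It had 407, 395 and 397 CPM in shRNF26, against 626, 635 and 617 CPM in shcontrol. The 3 knockdown values lay close together and far below the lowest control value. The log2 fold change was -0.65, with an SE of 0.035 and an edgeR adjusted p of 2.27e-11, or 63.8% of the control level.

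BCL2L1 (ENSG00000171552) had 108, 107 and 111 CPM in shRNF26, against 169, 177 and 167 CPM in shcontrol, again with no overlap. Its log2 fold change was -0.65, with an SE of 0.044 and an edgeR adjusted p of 5.53e-10, which left 63.6%. The gene yields the protective BCL-XL and a shorter pro-apoptotic form by splicing, and gene counts do not separate such forms of BCL2L1 or MCL1. The antisense gene ABALON, which overlaps BCL2L1 on the other strand, had at most 2 counts in any library. ADAMTSL4-AS1, which overlaps MCL1, had at most 5.

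BCL2 (ENSG00000171791), the founding member of the family, was at 15.4, 17.4 and 16.98 CPM in shRNF26 and 16.5, 16.1 and 17.6 CPM in shcontrol. The ranges overlapped almost completely. The log2 fold change of -0.01 had a 95% interval of -0.20 to 0.18 (edgeR adjusted p = 0.93), so a fall of the size seen for MCL1 lies outside it. The sign of this small value turned with the scaling, to 0.08 with library totals and 0.04 with upper-quartile scaling.

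BAK1 and BAX, whose products both form the membrane pore, had lower means in shRNF26, and BAK1 passed the test while BAX did not. BAK1 (ENSG00000030110) had 41.3, 41.8 and 43.7 CPM in shRNF26, against 57.6, 59.0 and 68.9 CPM in shcontrol. Control replicate 3 stood highest, and every knockdown value was below every control value. The log2 fold change of BAK1 was -0.55, with an SE of 0.068 and an edgeR adjusted p of 2.7e-06, and it was -0.47 without control replicate 3. BAK1 has a pair of annotated pseudogenes, BAK1P1 and BAK1P2, with 9 to 15 and 0 to 2 counts per library, so how reads shared with them were assigned limits its count. GGNBP1, which overlaps BAK1, had at most 3 counts.

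BAX (ENSG00000087088) was at 78.3, 74.9 and 71.1 CPM in shRNF26 and 85.4, 81.3 and 78.5 CPM in shcontrol. The highest knockdown value lay just under the lowest control value. The log2 fold change was -0.13 (SE 0.054, 95% interval -0.24 to -0.02), and it did not pass after adjustment (edgeR unadjusted p = 0.028, adjusted p = 0.064). Without control replicate 3 it passed at -0.16 (adjusted p = 0.037), while with library totals it was -0.04 and with upper-quartile scaling -0.07. The difference between the changes of BAK1 and BAX was not tested.

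The BH3-only genes, the sensors that start the route, went both ways. PMAIP1 (ENSG00000141682), which encodes NOXA, a partner of MCL1, had the largest change of the 10 genes. It had 59.9, 52.1 and 60.1 CPM in shRNF26, against 154, 162 and 160 CPM in shcontrol. Every control value was more than double the highest knockdown value. The log2 fold change was -1.47, with an SE of 0.055 and an edgeR adjusted p of 5.54e-14, a 2.77-fold fall that ranked 162 among the 14766 tested genes by signed change.

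BBC3 (ENSG00000105327) encodes PUMA, a potent activator of cell death and a classical target of p53. It had the lowest CPM of the 10 genes, with 131 to 158 counts per library in shRNF26 and 218 to 244 in shcontrol. The levels were 7.37, 8.58 and 8.26 CPM in shRNF26, against 13.7, 14.9 and 13.3 CPM in shcontrol. The groups did not overlap, and the log2 fold change was -0.79, with an SE of 0.11 and an edgeR adjusted p of 1.12e-05. Its interval of -1.02 to -0.56 was the widest of the 10, and a pair of microRNA genes that overlap it had no counts.

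BMF (ENSG00000104081) moved the other way. Its product is held at the cytoskeleton and is known for cell death after loss of attachment. BMF had 76.4, 76.0 and 83.6 CPM in shRNF26, against 44.4, 49.2 and 43.6 CPM in shcontrol. All knockdown values were above all control values, with a log2 fold change of 0.78 (SE 0.061, edgeR adjusted p = 5.18e-09), or 1.72-fold. It ranked 225 among rises. The antisense gene BMF-AS1 had no counts.

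BID (ENSG00000015475), which links death receptors to mitochondria once caspase 8 cuts it, was slightly higher. It had 112, 116 and 106 CPM in shRNF26, against 102, 99.2 and 100.4 CPM in shcontrol. The groups did not overlap, but the log2 difference was 0.15, with an SE of 0.047 and an edgeR adjusted p of 0.016. The call was lost without knockdown replicate 1 (0.15, adjusted p = 0.059), knockdown replicate 2 (0.12, adjusted p = 0.085) or control replicate 2 (0.14, adjusted p = 0.069). With library totals the value was 0.24 (adjusted p = 0.0004), and with upper-quartile scaling it was 0.20 (adjusted p = 0.0019).

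BCL2L11 (ENSG00000153094) encodes BIM, which binds all anti-apoptotic members. It was at 33.5, 30.5 and 32.0 CPM in shRNF26 and 30.4, 32.0 and 30.0 CPM in shcontrol. The ranges overlapped, and the log2 fold change of 0.06 had an interval of -0.09 to 0.20 (edgeR adjusted p = 0.56). BCL2L11 overlaps MIR4435-2HG on the opposite strand, which was lower at 24.0 ± 2.48 CPM in shRNF26 against 34.6 ± 2.002 CPM in shcontrol (log2 fold change -0.53, edgeR adjusted p = 4.13e-05). The strand setting of the counting remained not given in the sources used here, and the part of this overlap in the value of BCL2L11 was not tested.

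**Figure D2:**
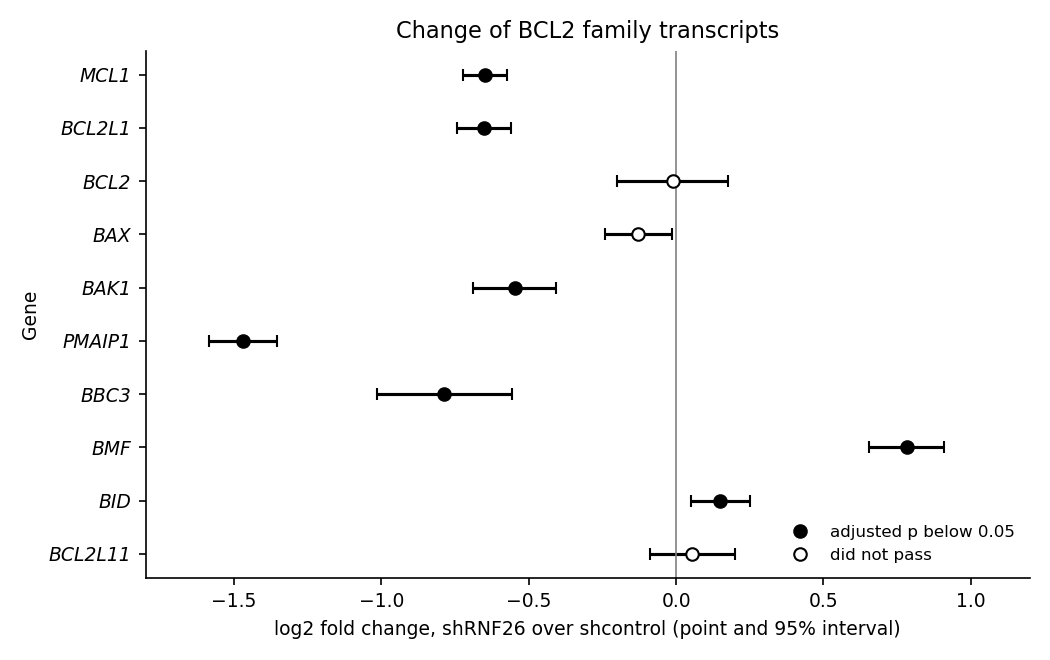
Log2 fold change of each gene (horizontal axis, shRNF26 over shcontrol) with its 95% interval from the edgeR fit. Filled points passed an adjusted p of 0.05, with PMAIP1 at -1.47 and BMF at 0.78 as the ends of the range, and open points did not pass.

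Levels of different genes were compared as CPM per kilobase of exon (lengths from GENCODE 29). In shRNF26 the order was MCL1 (91.4), BCL2L1 (32.8), BAX (28.9), PMAIP1 (25.7), BID (25.1), BAK1 (19.1), BMF (14.4), BCL2L11 (4.81), BBC3 (2.54) and BCL2 (1.41), all in CPM per kilobase. In shcontrol it was MCL1 (143), PMAIP1 (71.1), BCL2L1 (51.5), BAX (31.6), BAK1 (27.9), BID (22.6), BMF (8.40), BCL2L11 (4.63), BBC3 (4.38) and BCL2 (1.42). PMAIP1 thus stood at position 4 in shRNF26 and at position 2 in shcontrol. Neighbours whose ranges over 3 libraries overlapped were PMAIP1 and BID in shRNF26, and BAX and BAK1, and BCL2L11 and BBC3, in shcontrol. MCL1 ranked 284 and BCL2 11550 by mean CPM per kilobase over the 14595 tested genes with a length. The deposited table gives no gene lengths, so the order rests on the annotation used.

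The summed level of the 10 genes was 246 ± 3.40 CPM per kilobase in shRNF26 and 367 ± 3.99 in shcontrol. As shares of that sum, which no library scaling can change, PMAIP1 took 10.4 ± 0.710% in shRNF26 and 19.4 ± 0.329% in shcontrol. BMF took 5.87 ± 0.320% in shRNF26 and 2.29 ± 0.128% in shcontrol, and BID 10.2 ± 0.538% in shRNF26 and 6.17 ± 0.155% in shcontrol. The 5 BH3-only genes together held 29.5 ± 0.363% in shRNF26 and 30.3 ± 0.249% in shcontrol, so the summed share differed less than those of PMAIP1, BMF and BID. The effectors held 19.5 ± 0.300% in shRNF26 and 16.2 ± 0.586% in shcontrol. The anti-apoptotic genes held 51.0 ± 0.0952% in shRNF26 and 53.5 ± 0.589% in shcontrol. Because the summed level was lower in shRNF26, a share could be higher without a higher level: the means of BAX and BAK1 were lower in shRNF26, and BID was 1.11-fold higher in CPM. These shares are a description, with no test.

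**Figure D3:**
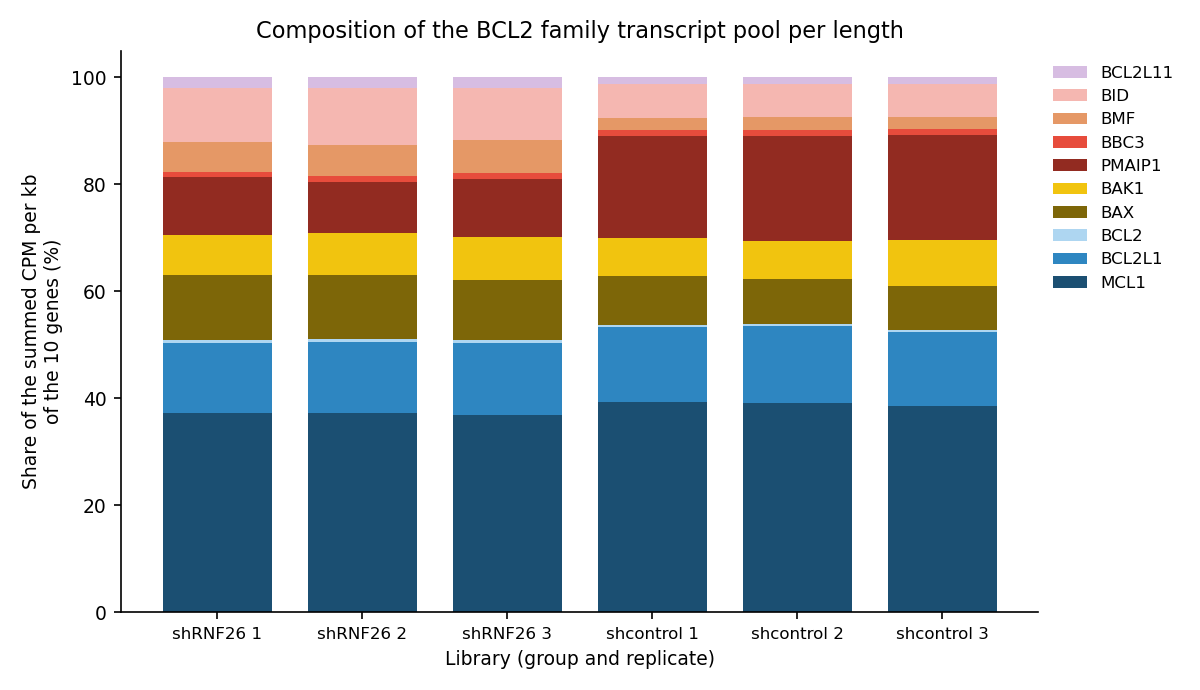
Share of each gene in the summed CPM per kilobase of the 10 genes (vertical axis, percent), with 1 stacked bar per library. PMAIP1 takes 9.61 to 10.9% in the shRNF26 bars and 19.0 to 19.6% in the shcontrol bars, while MCL1 is the largest share in all 6.

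A pair of count ratios within each library set a BH3-only gene against an anti-apoptotic partner. The ratio of PMAIP1 to MCL1 counts was 0.147, 0.132 and 0.151 in shRNF26, against 0.247, 0.255 and 0.260 in shcontrol. PMAIP1 was therefore lower relative to MCL1 too, although MCL1 itself fell, and the log2 difference was -0.82. The ratio of BCL2L11 to BCL2L1 counts was 0.310, 0.285 and 0.289 in shRNF26, against 0.180, 0.181 and 0.180 in shcontrol, a log2 difference of 0.71. Neither ratio overlapped between groups. For each the two-sided exact permutation test gave p = 0.1, the smallest that 3 against 3 libraries allow.

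Of 13 other BCL2 family and BH3-containing genes the filter left 9, of which 4 fell and 5 did not pass, and the median log2 fold change was -0.22. The share called, 44.4%, was near the 41.4% of all tested genes. BCL2A1, a further anti-apoptotic member, had the largest change, at 5.28 ± 0.655 CPM in shRNF26 and 8.57 ± 1.32 CPM in shcontrol (log2 fold change -0.70, SE 0.15, edgeR adjusted p = 0.00099). BCL2L2, which encodes the anti-apoptotic BCL-W, had 49.3 ± 0.918 CPM in shRNF26 and 61.8 ± 1.998 CPM in shcontrol (-0.33, SE 0.055), and it overlaps PPP1R3E on the opposite strand. The mitophagy receptor genes BNIP3L and BNIP3 had log2 fold changes of -0.34 and -0.22. The call for BNIP3, which has many pseudogenes, was lost with library totals (-0.13), without control replicate 3 and without knockdown replicate 2. BCL2L10, BCL2L14, BCL2L15 and HRK were below the filter.

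Downstream of the mitochondrial pore, genes of the apoptosome, caspases and mitochondrial proteins split. All 18 were tested, with 4 higher, 7 lower and 7 not passing (61.1% called, against 41.4% of all tested genes, median log2 fold change 0.09). CYCS, which encodes cytochrome c and has many pseudogenes, had 198 ± 4.10 CPM in shRNF26 and 256 ± 8.02 CPM in shcontrol (log2 fold change -0.37, SE 0.041). CASP6, which encodes a caspase, was higher (log2 fold change 0.26, SE 0.079), a call that was lost without control replicate 3. CASP10, an initiator caspase of death receptors, was called at 0.34 but lost the call in 6 of 14 alternatives. With library totals 2 in place of 7 of these genes were called lower.

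Of the 7 inhibitor of apoptosis genes 5 were tested, with 1 higher, 1 lower and 3 not passing (median -0.10). The 2 calls make 40% of those tested, near the share of all tested genes. BIRC5, which encodes survivin and also serves in mitosis, had 209.96 ± 0.791 CPM in shRNF26 and 181 ± 6.16 CPM in shcontrol (log2 fold change 0.21, SE 0.041, edgeR adjusted p = 0.00035). XIAP, an inhibitor of caspases, had -0.18, a call lost with library totals, with upper-quartile scaling, without control replicate 3 and without knockdown replicate 2.

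Among 13 enzymes described as controlling the turnover of BCL2 family proteins, 2 rose, 3 fell and 8 did not pass (median -0.04), so that 38.5% were called, again near the share of all tested genes. HUWE1, a ubiquitin ligase of MCL1, had 877 ± 23.0 CPM in shRNF26 and 737 ± 18.6 CPM in shcontrol (log2 fold change 0.25, SE 0.035, edgeR adjusted p = 1.23e-05). FBXW7, a substrate receptor of another MCL1 ligase, was lower (-0.35, SE 0.078), and USP13, a deubiquitinase described for MCL1, was higher (0.35, SE 0.085). UBE2F was lower (-0.33, SE 0.099), a call lost with library totals, without control replicate 1 and without knockdown replicate 1. Gene counts say nothing of the amount of the proteins.

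Of 16 transcription factors described as acting on BCL2 family genes, 4 were higher, 10 lower and 2 did not pass (median -0.29). The share called, 87.5%, was the highest of these lists, against 41.4% of all tested genes. The list was chosen with earlier results of these data known, so the gap between these shares cannot be read as a result about such factors. ATF3 had 9.40 ± 0.886 CPM in shRNF26 and 64.1 ± 2.29 CPM in shcontrol, and JUN 146 ± 6.09 CPM in shRNF26 and 967 ± 71.1 CPM in shcontrol. The log2 fold changes were -2.77 for ATF3 (edgeR adjusted p = 7.85e-16) and -2.73 for JUN (edgeR adjusted p = 1.87e-18). EGR1 was 5.15-fold lower and DDIT3, which encodes CHOP, 3.92-fold lower. These factors are described in other systems as activators of PMAIP1, BBC3 or BCL2L11, and PMAIP1 and BBC3 fell here while BCL2L11 did not pass. Whether any of them bears on the members was not tested.

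**Figure D4:**
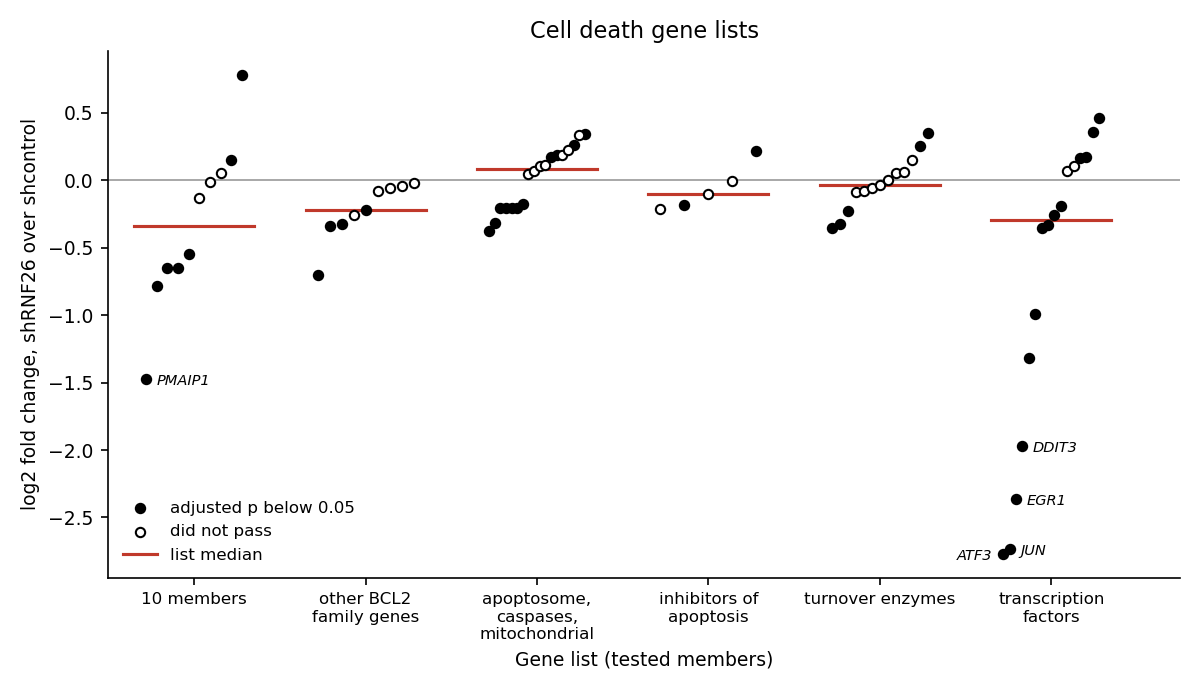
Log2 fold change of each tested gene (vertical axis, shRNF26 over shcontrol) by list, with filled points for genes that passed an adjusted p of 0.05, open points for those that did not, and a line at each list median. The 10 members run from -1.47 to 0.78, and only the members and the transcription factors hold called changes of at least 2-fold.

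The profile of PMAIP1 over the 6 libraries, centred on its mean as log2(CPM + 1), lay nearest to those of NT5E, TXNIP and FRMD6, at Euclidean distances of 0.097, 0.12 and 0.17. NT5E, a surface enzyme that makes adenosine, had 125 ± 6.49 CPM in shRNF26 and 360.0 ± 6.72 CPM in shcontrol. TXNIP had 127 ± 3.20 CPM in shRNF26 and 356 ± 5.96 CPM in shcontrol, and FRMD6 had 95.9 ± 3.04 CPM in shRNF26 and 251 ± 5.42 CPM in shcontrol. Since libraries of 2 groups make up these profiles, the likeness is mainly one of fold change.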

How the data were processed

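The authors deposited 1 table of gene counts for 6 libraries. It is named for FPKM, but its values are whole numbers with unequal totals and were treated as raw counts. Per the submitters' processing notes the build is hg19. Aligner, counter, annotation and strand setting remained not given in the sources used here. Per the labels' protocols a directional library kit was used. Groups and replicate numbers came from the titles. 2 blank rows were left out. Symbols came from a gene name table for 61369 IDs and from GENCODE 29 for others. GENCODE 29 and RefSeq are on GRCh38, so their coordinates were used only for the promoters, exon lengths and overlaps.

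Counts were tested with edgeR 4.0.16 in R 4.3.3 (glmQLFit and glmQLFTest, two-sided, TMM factors 0.966 to 1.033) on the 14766 genes with a mean of at least 1 CPM, which held 99.7% of the counts, with Benjamini-Hochberg adjustment over all of them. Standard errors were obtained by dividing the size of the log2 change by the root of F. The test was checked on simulated data in which few genes were changed, in random directions. That setting differs from these data, where 41.4% of tested genes were called, so the check does not cover a change this broad. Replicates of a group differed by more than sampling noise (chi-square per degree of freedom 2.31 to 4.98), and all 6 were treated as separate libraries. This spread cannot show whether they came from separate cultures. Precision is limited by 3 libraries per group. The members and lists were chosen with earlier results of these data known. The text names the 10 members, RNF26, up to 4 called genes per list by size of change, and the 3 genes nearest to the member that changed most; some genes this rule names are not reported here. Motifs were chosen after the results were seen, as were the overlapping genes, pseudogenes and E-boxes named. 14 alternatives were run per member, with DESeq2 1.42.0 and limma 3.58.1 among them.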

Additional observations from a re-analysis of the deposited data

How the results depend on the processing

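PMAIP1, MCL1, BCL2L1, BBC3, BAK1 and BMF kept direction and call in all 14 alternatives (PMAIP1 -1.50 to -1.38, MCL1 -0.66 to -0.56, BCL2L1 -0.67 to -0.56, BBC3 -0.83 to -0.70, BAK1 -0.60 to -0.46, BMF 0.74 to 0.87 on the log2 scale). BCL2L11 stayed not passed (0.02 to 0.15). BCL2 never passed but turned positive with library totals (0.079), upper-quartile scaling (0.041), without control replicate 3 (0.022) and without knockdown replicate 1 (0.038), within -0.047 to 0.038 over the libraries left out. BID was 0.24 with library totals and 0.20 with upper-quartile scaling. It ranged from 0.12 to 0.18 and BAX from -0.16 to -0.093 when 1 library was left out. With the replicate number as a block, BAX passed at -0.13 (adjusted p = 0.045), which made 6 members lower, and 2 inhibitor of apoptosis genes were lower, and all tested genes called were 2935 higher and 3479 lower. The deviations of same-numbered libraries had correlations of 0.011, -0.027 and 0.093, within the -0.12 to 0.12 of differently numbered ones. With 3 libraries per group this cannot show whether same-numbered libraries shared a batch.

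With library totals 2 apoptosome genes, 0 inhibitor of apoptosis genes and 1 turnover enzyme were called lower, and 4449 tested genes were higher, while the median of all genes moved from 0.01 to 0.10. Inhibitor of apoptosis genes called lower were also 0 with upper-quartile scaling and 2 with the robust fit. Leaving out 1 library gave 1 to 2 members higher and 5 to 6 lower, 2 to 5 apoptosome genes higher, and 0 to 3 inhibitor of apoptosis genes lower. The log2 ratio of PMAIP1 to MCL1 stayed within -0.86 to -0.77 and that of BCL2L11 to BCL2L1 within 0.67 to 0.73. Library totals leave out the TMM factors, which were 1.031 to 1.033 in shRNF26 and 0.966 to 0.971 in shcontrol. All members therefore moved up by nearly the same amount, for instance BCL2 from -0.012 to 0.079 and BID from 0.15 to 0.24. The cause of the other shifts was not tested. The low counts of BBC3 and BCL2A1 limit their precision.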
